A study of Homo sapiens with 6 samples.

Results

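In A549, a cell line from a human lung adenocarcinoma, 10 genes for secreted inflammatory cytokines and chemokines were followed after knockdown of BAP18. The genes were taken by name from the deposited count table: CXCL1, CXCL2, CXCL3, CXCL5, CCL2, CCL20, IL6, IL11, LIF and IL1A. Of these 10 genes, 9 had a row among the 35474 genes listed, and 7 were among the 20776 genes that passed the filter on low counts. CCL20 and IL6 had a row but did not pass, and IL1A had no row. BAP18 (BPTF-associated protein of 18 kDa, gene C17orf49) is a chromatin-associated protein, and the study asked how the A549 transcriptome changed without it. 3 cultures received an siRNA against BAP18 (siBAP18) and 3 a non-targeting siRNA (siCtrl), and poly(A) RNA was collected from all 6 at 48 h after transfection. The labels describe the 3 cultures of each group as biological replicates of 1 cell line. They do not state which of the study's BAP18 siRNAs was used, no secreted protein was measured here, and in bulk RNA a change in the share of cells that express a gene cannot be told apart from a change in RNA per cell.

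Chemokines are small secreted proteins that direct the migration of leukocytes. CXCL1, CXCL2, CXCL3 and CXCL5 are closely related ligands of the receptor CXCR2 on neutrophils and lie together in a gene cluster on chromosome 4. CCL2 attracts monocytes through CCR2, and CCL20 attracts CCR6-bearing lymphocytes and dendritic cells. IL-6, IL-11 and LIF share the signaling receptor gp130 (gene IL6ST), to which each is brought by its own partner receptor. IL-1α (gene IL1A) is an alarmin released by damaged epithelial cells. Several of these genes are textbook targets of NF-κB and AP-1, which bind near the transcription start site, and many of their mRNAs carry AU-rich elements in the 3′ UTR that shorten the life of the transcript.

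The promoters are shown because they carry the sequence feature that most of the genes had in common. RefSeq promoters (GRCh38.p14, 250 bases before to 50 after the start site) were in the reference table for 8 of the 10 genes. CCL2 and LIF were not matched. The 140 bases before the start site follow for 7 of them, 5′ to 3′ on the strand of the gene, with the NF-κB word (GGG, any 2 bases, TTTCC) or the AP-1 word TGANTCA, on either strand, in capitals.

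CXCL1, chr4:73869253-73869392, plus strand: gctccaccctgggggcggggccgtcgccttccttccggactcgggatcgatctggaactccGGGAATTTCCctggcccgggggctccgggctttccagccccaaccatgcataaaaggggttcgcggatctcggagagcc
CXCL2, chr4:74099196-74099335, minus strand: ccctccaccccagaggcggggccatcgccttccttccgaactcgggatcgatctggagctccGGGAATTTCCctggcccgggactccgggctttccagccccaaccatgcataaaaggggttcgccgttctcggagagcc
CXCL3, chr4:74038690-74038829, minus strand: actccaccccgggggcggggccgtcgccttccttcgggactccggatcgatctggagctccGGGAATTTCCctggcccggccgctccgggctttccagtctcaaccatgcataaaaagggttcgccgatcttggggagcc
CXCL5, chr4:73998678-73998817, minus strand: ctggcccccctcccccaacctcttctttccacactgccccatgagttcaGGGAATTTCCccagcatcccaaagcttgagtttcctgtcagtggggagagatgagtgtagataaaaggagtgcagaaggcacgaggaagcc
CCL20, chr2:227813702-227813841, plus strand: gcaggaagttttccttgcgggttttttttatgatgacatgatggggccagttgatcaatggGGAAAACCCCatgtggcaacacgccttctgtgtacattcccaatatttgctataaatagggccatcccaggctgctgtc
IL6, chr7:22727060-22727199, plus strand: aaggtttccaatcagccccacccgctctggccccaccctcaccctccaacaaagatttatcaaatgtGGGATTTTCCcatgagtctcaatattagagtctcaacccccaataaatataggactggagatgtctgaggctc
IL11, chr19:55370464-55370603, minus strand: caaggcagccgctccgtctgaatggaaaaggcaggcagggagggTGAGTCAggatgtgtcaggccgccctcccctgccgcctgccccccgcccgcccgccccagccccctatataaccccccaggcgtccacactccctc

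The NF-κB word was found in 6 of the 8 genes, against 1.91% of all 35116 promoters of the same length. Its first base lay at −79 in CXCL1, −78 in CXCL2, −79 in CXCL3 and −91 in CXCL5, counted so that −1 is the base before the start site. In IL6 it lay at −73, and in CCL20 at −79 on the opposite strand. A looser NF-κB word (GGG, any 5 bases, CC), which includes the stricter one, was also in 6 of the 8, and 58.7% of all promoters held it. The AP-1 word TGANTCA was found in IL11, at −96, and in IL1A, and in 7.71% of all promoters. The C/EBP word TTNCNNAA was in CXCL2, IL6 and IL1A, 3 of the 8, against 36.8% of all promoters. Alignment of the stretches shown left 139 bases of CXCL1 aligned without gaps to CXCL2, of which 129 were identical (92.8%), and 140 to CXCL3, of which 127 were identical (90.7%). CXCL5 stood further off, with only 114 bases aligned to CXCL1 and 81 of them identical. These matches describe letters in a window, and no binding was measured here.

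**Figure D1:**
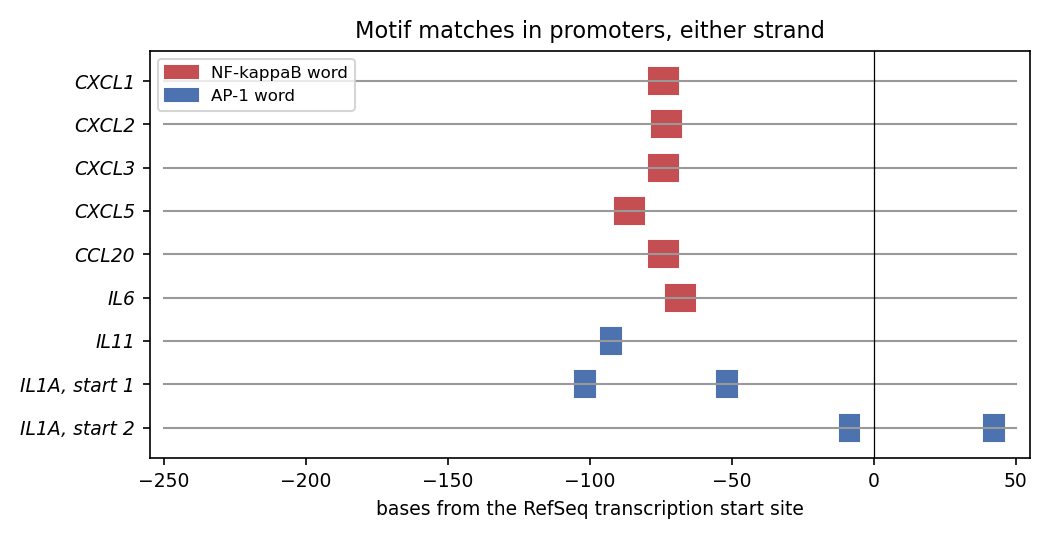
NF-κB words (GGG, any 2 bases, TTTCC, red) and AP-1 words (TGANTCA, blue) on either strand, by distance in bases from the RefSeq start site. IL1A has a pair of annotated start sites. The NF-κB word begins between −91 and −73 in all 6 genes that hold it, and IL11 holds an AP-1 word at −96.

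The group labels were checked on the targeted gene first. C17orf49 (chr17:7014495-7017525, plus strand) held 743, 751 and 705 counts in the siCtrl libraries, against 120, 137 and 108 with siBAP18, or −2.65 as a log2 fold change. Total counts ranged from 46035635 to 53657450 in siCtrl and from 42094524 to 56548620 in siBAP18, so that 3 counts correspond to between 0.0514 and 0.0740 CPM, which are counts scaled to library size. The scaling was by TMM, errors are SDs over 3 libraries, and folds are siBAP18 over siCtrl with a 95% interval, and log2 folds carry ± their standard error. Adjusted p-values come from the quasi-likelihood test of edgeR, corrected over all genes tested, unless another test or setting is named beside them. The study's own thresholds define a called gene, which needs an adjusted p below 0.05 together with a log2 fold change beyond 1 in either direction. By this rule, with the test used here, 4.72% of all genes tested were called higher and 3.74% lower. The totals that the study reported were smaller in both directions. The median log2 fold change of all genes was 0.0010.

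IL11 and CCL2 rose about 4-fold in siBAP18 cells and were the 2 genes of the group that were called. CXCL1, CXCL2 and CXCL3 rose by 1.48- to 1.73-fold, at an adjusted p under 0.05 but below the fold threshold. CXCL5 and LIF, the most abundant of the genes, were lower by 11.9% and 13.8% at an adjusted p under 0.05. At an adjusted p under 0.05 alone, 5 of the 7 genes tested were thus higher and 2 lower, where 24.5% of all genes tested were higher and 25.1% lower. In all 7 the CPM values of the 2 groups did not overlap, which also held for 27.6% of all genes in the higher and 29.0% in the lower direction. The median log2 fold change of the 7 genes was 0.68.

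**Figure D2:**
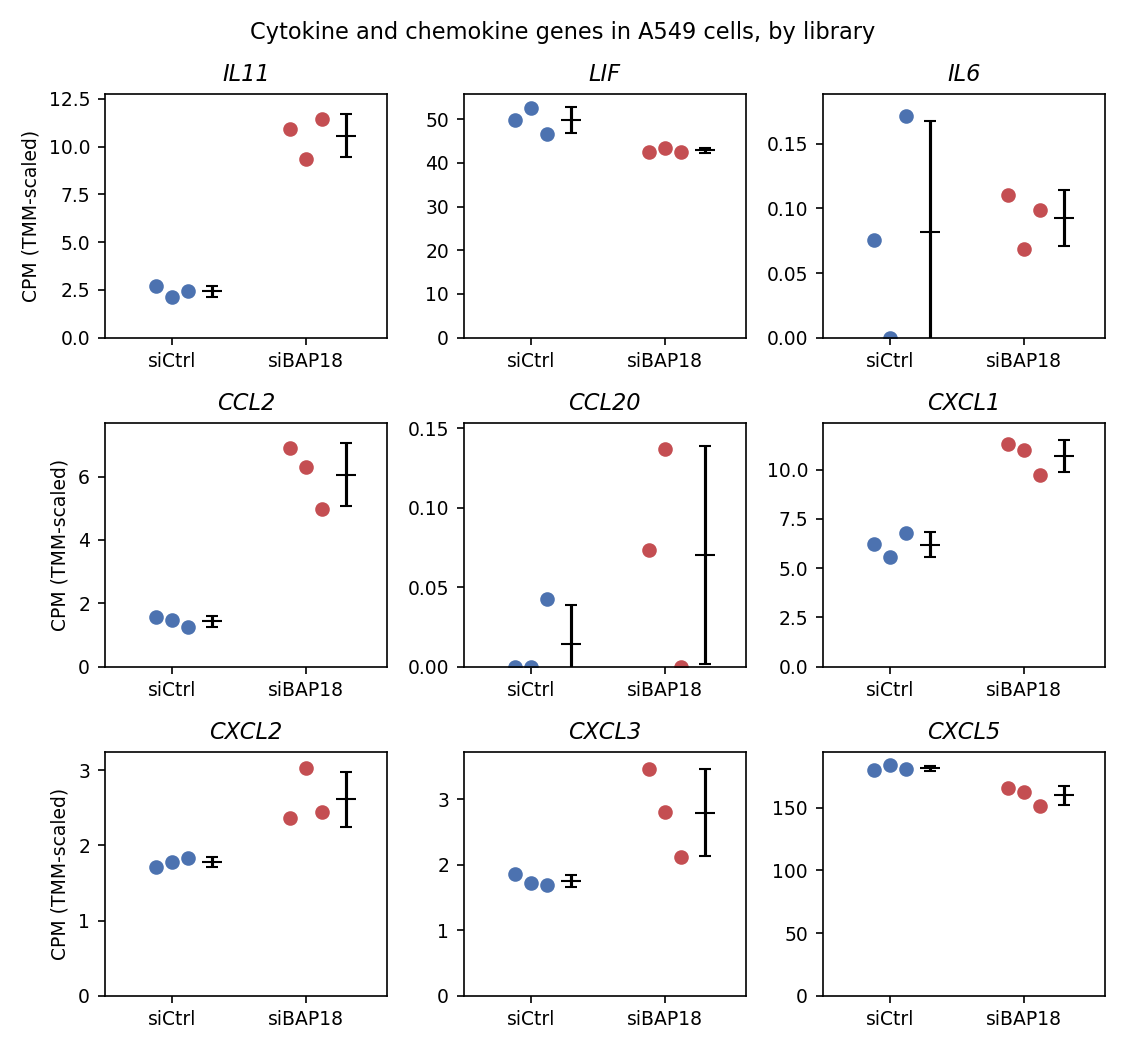
CPM of the 9 listed genes in each library (points, siCtrl blue and siBAP18 red; linear axes from 0), with the mean and SD of 3 libraries in black. IL11 and CCL2 rise from means of 2.42 and 1.43 CPM to 10.6 and 6.06 CPM, CXCL5 and LIF fall slightly, and IL6 and CCL20 stay under 0.2 CPM in every library.

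Among the gp130 cytokines, IL11 encodes interleukin-11, an epithelial and stromal cytokine. The gene (chr19:55364389-55370463, minus strand) held 143, 98 and 115 counts in replicates 1, 2 and 3 of siCtrl and 595, 545 and 465 in those of siBAP18. Every siBAP18 library lay more than 3-fold above every siCtrl library in CPM, with values of 2.42 ± 0.293 CPM (SD, n = 3) in siCtrl and 10.6 ± 1.11 CPM (SD, n = 3) in siBAP18. The fold was 4.35 (95% interval 3.64 to 5.19), or 2.12 ± 0.124 as log2 (± standard error), with an adjusted p of 4.7e-13. By log2 fold change it ranked 240 among 20776 genes. Of the promoters printed above, only that of IL11 holds the AP-1 word, which the promoter of IL1A also holds. No promoter was matched for CCL2, and the part of this word in the rise of IL11 was not tested.

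LIF encodes leukemia inhibitory factor, a gp130 cytokine known for its roles in stem cell maintenance and implantation. At chr22:30240447-30246851 on the minus strand, it had 2650, 2447 and 2182 counts in siCtrl and 2315, 2536 and 1723 in siBAP18. As CPM the siBAP18 libraries lay close together, at 42.5, 43.4 and 42.5, below the lowest siCtrl library at 46.7. The mean went from 49.7 ± 2.97 CPM to 42.8 ± 0.520 CPM (mean ± SD, 3 libraries each), or −0.21 ± 0.069 as log2 fold (adjusted p = 0.011). Without siCtrl replicate 2 the adjusted p was 0.092. Exons of LIF share 175 bases, or 4.41% of its listed length, with the opposite-strand gene RP1-102K2.8, whose own log2 fold change was −0.27 at an adjusted p of 0.024. Whether the counting used strand is not given in the sources used here.

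IL6 encodes interleukin-6, a main inducer of the acute phase response. Only 4, 0 and 8 counts fell on it in siCtrl and 6, 4 and 4 in siBAP18 (chr7:22725884-22732002, plus strand), so it was not tested and no fold is given. The groups overlapped, and no library held more than 8 counts. IL6 shares 428 bases, 20.7% of its listed length, with the opposite-strand gene AC073072.5, which held at most 3 counts in any library.

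The ratio of IL11 to LIF within each library needs no scaling between libraries. In siCtrl the log2 ratio of counts was −4.21, −4.64 and −4.25 in replicates 1, 2 and 3, and in siBAP18 it was −1.96, −2.22 and −1.89. The groups did not overlap, and the means differed by 2.34. An exact permutation test (two-sided) gave p = 0.1, the smallest value that 3 against 3 libraries allow, and an adjusted p of 0.2 over the 4 ratios examined. The ratio sets a gene given above as higher against 1 given as lower, so its shift restates those results from the same counts.

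Among the CC chemokines, CCL2 (chr17:34255218-34257203, plus strand), the monocyte chemoattractant MCP-1, had 84, 68 and 58 counts in siCtrl and 376, 368 and 202 in siBAP18. The lowest siBAP18 library, replicate 3 at 4.98 CPM, stood well above the highest siCtrl library at 1.58 CPM. Mean expression went from 1.43 ± 0.172 CPM to 6.06 ± 0.985 CPM (SD, n = 3 each). CCL2 rose 4.25-fold (95% interval 3.40 to 5.31), or 2.09 ± 0.156 as log2 fold (adjusted p = 4.1e-11). It ranked 250 by log2 fold change. With limma on log2(RPKM + 1) the log2 fold changes were 1.23 for CCL2 and 1.38 for IL11, and both were still called.

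CCL20 (chr2:227813842-227817564, plus strand), the ligand of CCR6, had 0, 0 and 2 counts in siCtrl and 4, 8 and 0 in siBAP18. It did not pass the filter. A library with 0 counts allows up to 3 counts, and the groups overlapped, so a difference was not detectable at this depth. When the filter was dropped the adjusted p was 0.33. IL1A had no row in the table, which holds no gene with 0 counts in all 6 libraries, and no value can be given for it.

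CXCL1, a member of the GRO family of neutrophil chemoattractants, lies at chr4:73869393-73871242 on the plus strand. It had 332, 258 and 317 counts in siCtrl and 614, 643 and 395 in siBAP18. The highest siCtrl library reached 6.78 CPM and the lowest siBAP18 library 9.74 CPM. Mean expression went from 6.19 ± 0.619 CPM to 10.7 ± 0.821 CPM (SD, n = 3 each), a fold of 1.73 (95% interval 1.49 to 2.00), or 0.79 ± 0.103 as log2 fold (adjusted p = 5.9e-07). The adjusted p passed in all 17 alternative settings and the log2 fold change stayed between 0.68 and 0.86.

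CXCL2 and CXCL3, the neighboring GRO genes, lie at chr4:74097035-74099293 and chr4:74036589-74038807 on the minus strand. CXCL2 had 91, 83 and 86 counts in siCtrl and 129, 177 and 99 in siBAP18. The counts of CXCL3 were 99, 80 and 79 in siCtrl and 188, 164 and 86 in siBAP18. The raw count of CXCL3 in siBAP18 replicate 3, the smallest library, lay within the siCtrl range, but as CPM it was 2.12 against at most 1.86 in siCtrl. CXCL2 went from 1.78 ± 0.0646 CPM to 2.61 ± 0.362 CPM (mean ± SD, 3 libraries each), or 0.56 ± 0.168 as log2 fold (adjusted p = 0.0071). CXCL3 went from 1.76 ± 0.0915 CPM to 2.79 ± 0.667 CPM (mean ± SD, 3 libraries each), or 0.68 ± 0.180 as log2 fold (adjusted p = 0.0027). The siBAP18 libraries spread more widely than the siCtrl libraries in both genes, and CXCL2 no longer passed without siBAP18 replicate 2 (log2 fold change 0.44, adjusted p = 0.056).

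CXCL5, another CXCR2 ligand that attracts neutrophils, lies at chr4:73995642-73998779 on the minus strand. Its counts were far above those of the other chemokines, at 9597, 8555 and 8437 in siCtrl and 9032, 9504 and 6138 in siBAP18. The 3 siCtrl libraries lay between 180.4 and 183.9 CPM, and the siBAP18 libraries between 151.4 and 166.0 CPM. The mean went from 181.6 ± 2.01 CPM to 160.04 ± 7.65 CPM (mean ± SD, 3 libraries each), or −0.18 ± 0.065 as log2 fold (adjusted p = 0.023). This small difference did not pass when any 1 siCtrl library was left out, with adjusted p = 0.070 without replicate 1, 0.087 without replicate 2 and 0.070 without replicate 3.

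CXCL5 moved in the other direction from CXCL1, CXCL2 and CXCL3, by a small difference that did not pass in 6 of 17 settings. All 4 promoters hold the NF-κB word, and the part of this word in the results was not tested. Of the counts on the 4 CXC genes, CXCL5 held 94.9% ± 0.363 (SD, n = 3) in siCtrl and 90.9% ± 0.422 (SD, n = 3) in siBAP18. The log2 ratio of CXCL1 to CXCL5 counts was −4.85, −5.05 and −4.73 in siCtrl and −3.88, −3.89 and −3.96 in siBAP18. This ratio differed by 0.97 without overlap between the groups (exact permutation test, two-sided, p = 0.1, the smallest value possible, adjusted p = 0.2 over 4 ratios). It sets a gene given above as higher against 1 given as lower, so its shift restates those results. The ratio of CXCL1 to CXCL3 differed by 0.15 (p = 0.6) and that of CXCL2 to CXCL3 by −0.095 (p = 0.9) in the same exact permutation test, both with overlapping groups.

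The GRO genes are paralogs, so their sequences were searched for stretches that occur in a related gene. The search covered GENCODE 29 transcripts of the 10 genes and protein-coding transcripts of genes whose symbols begin with CXCL, CCL or IL. Pseudogenes and all other genes were not searched. Within this set, 16.2% of the 30-base words of CXCL1, 21.2% of those of CXCL2 and 9.94% of those of CXCL3 occurred in another gene. At 75 bases the shares were 0.293%, 2.27% and 2.30%. At 150 bases, the length of 1 read, no word of these genes was shared within the set. How reads that fit several genes were counted is not given in the sources used here.

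**Figure D3:**
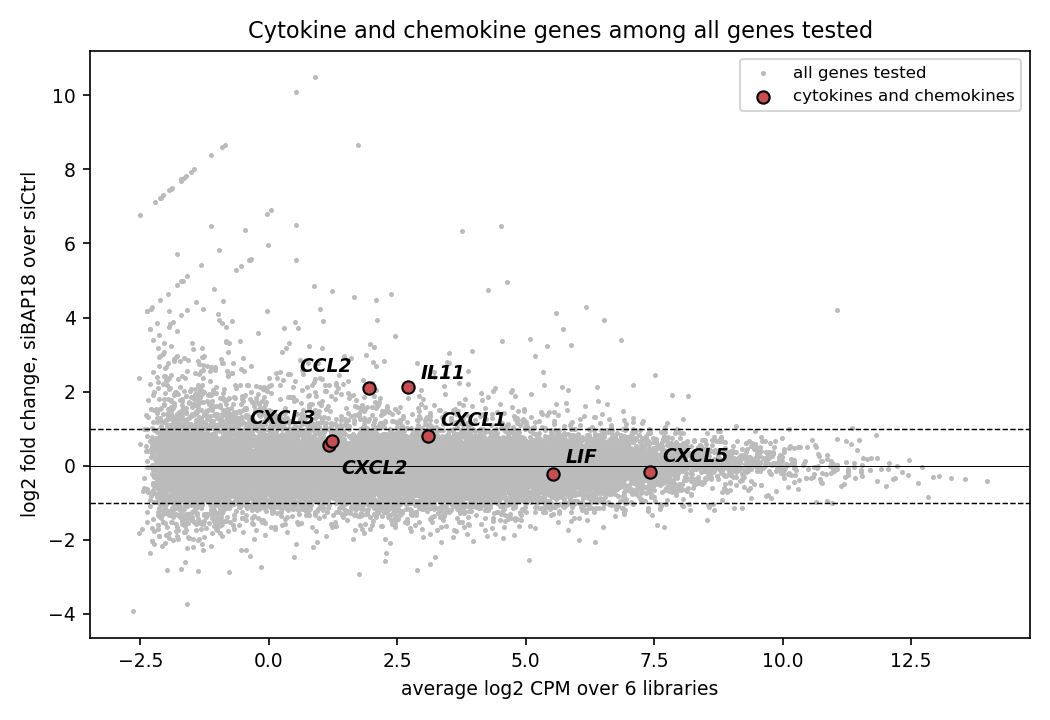
Log2 fold change (siBAP18 over siCtrl) against average log2 CPM for all 20776 genes tested (grey) and the 7 genes tested of the group (red). Dashed lines mark a log2 fold change of 1 in either direction. IL11 (2.12) and CCL2 (2.09) lie above the upper line, CXCL1 (0.79), CXCL3 (0.68) and CXCL2 (0.56) between it and 0, and CXCL5 (−0.18) and LIF (−0.21) just below 0.

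Levels were compared between genes per length, as the deposited RPKM. In siCtrl cells CXCL5 stood first at 71.4 ± 1.56 RPKM (SD, n = 3), followed by LIF at 12.5 ± 0.862 and CXCL1 at 4.76 ± 0.435. CXCL2 at 1.18, IL11 at 0.903, CXCL3 at 0.790 and CCL2 at 0.717 RPKM came next, and IL11 overlapped CXCL3 in range, as CXCL3 did CCL2. IL6 and CCL20 were last, at 0.039 and 0.011 RPKM, with overlapping ranges. In siBAP18 cells CXCL5 at 63.2, LIF at 10.8 and CXCL1 at 8.26 RPKM kept the first places, while IL11 at 3.96 and CCL2 at 3.07 RPKM now stood above CXCL2 at 1.75 and CXCL3 at 1.27, whose ranges overlapped. The listed lengths of CXCL3 (2219 bases) and CCL2 (1986 bases) span the whole gene, whereas their longest annotated coding transcripts have 1075 and 741 bases. Per base of that transcript CCL2 went from 1.92 to 8.22 and CXCL3 from 1.63 to 2.61 RPKM, so that the order among IL11, CCL2, CXCL2 and CXCL3 depends on the length used.

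AU-rich elements were counted in the longest coding transcript of each gene. The core heptamer UAUUUAU, written TATTTAT in the DNA letters of the annotation, occurred in the 3′ UTR of 31.6% of 18636 GENCODE genes whose 3′ UTR has at least 50 bases and in 9 of the 10 genes here. This search was added after the expression values had been seen. CXCL2 held 8 copies, IL11 7, LIF 5, CXCL1 4, CXCL3, CXCL5, IL6 and IL1A 3 each, CCL20 1 and CCL2 none. Overlapping copies were counted separately, as in the repeat runs of CXCL2 and IL11, and the counts were not scaled to length. The 3′ UTR has 1618 bases in IL11 and 376 in CCL2, the 2 genes called higher. Of 3′ UTRs at least as long as that of CCL2, 61.0% lacked the heptamer. For the 9 genes that held it, this share ran from 30.1% (LIF) to 59.9% (IL6). The 31.6% covers 3′ UTRs of all lengths from 50 bases and is not matched to the length of these genes. The part of these elements in the results was not tested. Sites are printed for genes that were higher and genes that were lower, on GRCh38, 5′ to 3′ on the strand of the gene, with the heptamer in capitals.

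IL11, chr19:55365947-55365975, minus strand: aagccagatctTATTTATttatttatttc
CXCL1, chr4:73871013-73871041, plus strand: atgtcagttgtTATTTATtgaaatgattt
CXCL2, chr4:74097246-74097274, minus strand: atgtcagttgtTATTTATtgaaatgattt
CXCL3, chr4:74036773-74036801, minus strand: atgtcagttgtTATTTATtcaaattatct
CXCL5, chr4:73996887-73996915, minus strand: attttatatgcTATTTATtaagtatttta
LIF, chr22:30242572-30242600, minus strand: ggcatgatttcTATTTATtatgatatcct

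**Figure D4:**
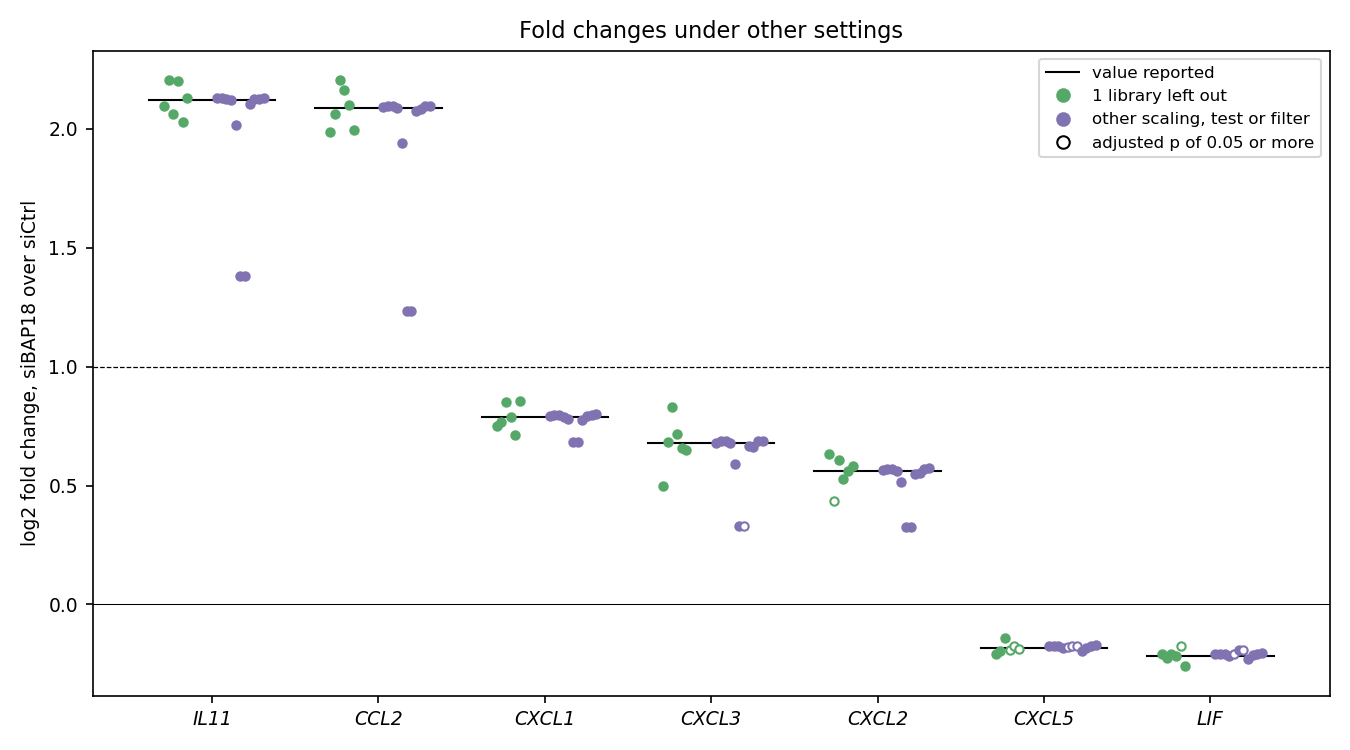
Log2 fold change (siBAP18 over siCtrl) of the 7 genes tested, as reported (black line), with each of the 6 libraries left out (green) and under the other settings (purple). Open points have an adjusted p of 0.05 or more. IL11 stays between 1.38 and 2.21 and CCL2 between 1.23 and 2.21, while CXCL5 has open points in 6 of 17 settings.

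By the rule fixed for likeness, the gene with the closest profile to IL11 over the 6 libraries was TMEM265, at a Euclidean distance of 0.206 between the log2 CPM profiles centred on siCtrl. TMEM265 had a log2 fold change of 2.03 (standard error 0.095). INPP5D, which encodes the inositol phosphatase SHIP1, was closest to CCL2, at a distance of 0.187 and a log2 fold change of 2.13 (standard error 0.240). A total of 16150 genes averaging a log2 CPM of 0 or more entered this search. The distance rests largely on the change from siCtrl, so similar fold changes follow from the search itself.

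Other ligands, not all of them secreted, were read from lists of the same families. Of 13 other CXC ligands, 9 had a row, 3 were tested and 1, CXCL8, was called higher. CXCL8 encodes interleukin-8, the best known neutrophil chemoattractant, and had 64, 76 and 44 counts in siCtrl and 210, 334 and 154 in siBAP18. The groups were well apart, at 1.83 ± 0.195 as log2 fold (adjusted p = 2.1e-08). With limma on log2(RPKM + 1) it was at 0.93 and no longer called, at an adjusted p of 0.0011. Of 27 other CC, CX3C and XC ligands, 14 had a row, 2 were tested and none was called. CCL5 came nearest with a log2 fold change of 0.93 and an adjusted p of 0.060, and is named here after its value was seen. Without siBAP18 replicate 1, 1 gene of this list was called higher.

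Of 31 further cytokines of the IL-6, IL-1, TNF, colony-stimulating and related families, 13 were tested, 5 were called higher and 1 lower, with a median log2 fold change of 0.37. IL32, a proinflammatory cytokine, rose by 2.77 on the log2 scale (standard error 0.119), IL23A, a subunit of IL-23, by 2.30 (standard error 0.154), and LTB, a membrane-bound TNF family ligand, by 2.86 (standard error 0.261). IL24 (1.35) and IL12A (1.20) were the other 2 called higher and are named after their values were seen. Counts of IL24 were low, at 6, 4 and 15 in siCtrl and 34, 20 and 14 in siBAP18. IL12A had 18, 6 and 21 counts in siCtrl and 49, 39 and 22 in siBAP18. The number called higher in this list was 3 without siBAP18 replicate 1. It was also 3 with at least 10 counts in every library and in the 3 limma settings. Without replicate 3 of either group the number called lower in this list was 2. TNFSF10, which encodes the death ligand TRAIL, had 136, 124 and 124 counts in siCtrl and 52, 64 and 43 in siBAP18 and fell by 1.34 (standard error 0.182). With limma on log2(RPKM + 1), a scale that understates the change of low genes, TNFSF10 was at −0.43 and no longer called, and LTB was at 1.13. IL1B, the inducible partner of IL1A, had 10, 14 and 8 counts in siCtrl and 6, 8 and 8 in siBAP18, and IL1RN, the IL-1 receptor antagonist, held at most 2 counts in any library, so neither was tested.

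**Figure D5:**
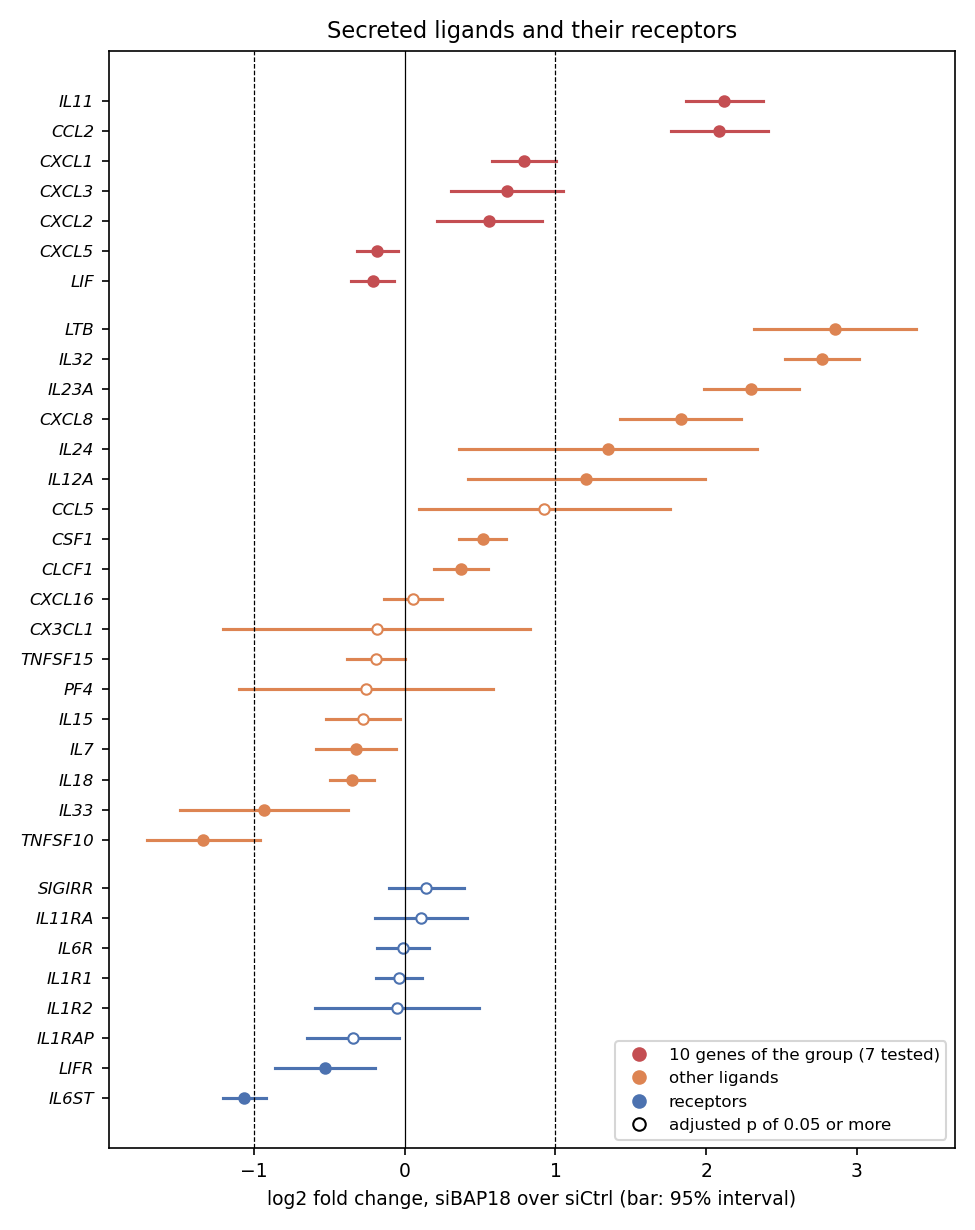
Log2 fold change (siBAP18 over siCtrl) with its 95% interval for the 7 genes tested of the group (red), other ligands tested, secreted or membrane-bound (orange), and receptors tested (blue). Open points have an adjusted p of 0.05 or more. The orange ligands run from −1.34 (TNFSF10) to 2.86 (LTB), and IL6ST (−1.07) is the only receptor beyond a log2 fold change of 1 in either direction.

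Of 15 receptors for these ligands, 8 were tested, 1 was called lower and none higher, with a median log2 fold change of −0.04. IL6ST (gp130), the shared receptor of the IL-6, IL-11 and LIF proteins, had 2907, 2550 and 2727 counts in siCtrl and 1398, 1636 and 1073 in siBAP18, and fell by 1.07 on the log2 scale (standard error 0.070, adjusted p = 4.2e-12). It was at −0.85 with limma on log2(RPKM + 1), short of the fold threshold. LIFR, the partner receptor of LIF, fell by 0.53 (adjusted p = 0.0080). IL6R (−0.01, adjusted p = 0.91) and IL1R1 (−0.04, adjusted p = 0.69) did not pass. Nor did IL11RA, the partner receptor of IL-11, at 0.11 (adjusted p = 0.58), which is named after its value was seen. Without siCtrl replicate 2 or 3, 1 receptor gene was called higher. Of the chemokine receptors, CXCR1, CXCR2 and CCR2 had no row, and CCR6, the receptor for CCL20, held at most 6 counts in any library and was not tested.

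Regulators of these genes were listed as well. Of 21 NF-κB, AP-1 and C/EBP genes, all tested, 10 were called higher and none lower, with a median log2 fold change of 0.92. ATF3 (4.27), FOSL1 (3.70) and JUN (3.39), all partners in AP-1 type dimers, and NFKBIB (1.49), an inhibitor of NF-κB, led the list by adjusted p. NFKBIA, which encodes the inhibitor IκBα, rose by 0.67 (adjusted p = 7.3e-08), and RELA, which encodes the p65 subunit, was at 0.10 (adjusted p = 0.28) and did not pass. The other NF-κB subunit genes are named after their values were seen. RELB rose by 1.42 (adjusted p = 8.0e-14) and NFKB2 by 0.92 (adjusted p = 5.7e-11). NFKB1 was at 0.11 (adjusted p = 0.27) and did not pass, and REL was at −0.24 (adjusted p = 0.040). Of 12 genes for proteins that control AU-rich or other short-lived mRNAs, none was called, and 2 were higher and 4 lower at an adjusted p under 0.05. ZFP36, which encodes the AU-rich element binding protein tristetraprolin, rose by 0.38 (adjusted p = 0.0015). Of 8 genes for the processing and release of IL-1 and other cytokines, 7 were tested and none was called, and 2 were higher and 3 lower at an adjusted p under 0.05. The part of these regulators in the results for the secreted ligands was not tested.

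Markers of the labelled cell type and of other cells were read beside these results. All 8 epithelial markers were tested, and their summed level was 21159 to 22988 CPM in siCtrl and 16899 to 21076 CPM in siBAP18. Most of that sum was KRT8, at a mean of 13436 CPM in siCtrl and 10433 CPM in siBAP18, and KRT18, at 5996 and 5075 CPM. CDH1, which encodes E-cadherin, was called lower in this list, and CLDN7 held only 8 to 22 counts. At an adjusted p under 0.05 alone, 5 of the 8 were lower and 1, KRT7, was higher (0.43 on the log2 scale, adjusted p = 5.9e-05). KRT7, KRT8 and KRT18 are named after their values were seen. Of 10 leukocyte markers 4 were tested, PTPRC, CD3E and CD3D had no row, MS4A1 and FCGR3A held at most 2 counts in any library, and the summed level was 65.3 to 71.6 CPM in siCtrl and 122.6 to 165.5 CPM in siBAP18. Most of that sum was CD68 alone, at 66.2 ± 3.47 CPM in siCtrl and 136.4 ± 21.8 CPM in siBAP18 (SD, n = 3 each). CD68 (1.04 on the log2 scale), a lysosomal membrane protein found in many cell types, and ITGAM (2.22) were the 2 called higher in that list. Both are named after their values were seen, and whether they have any part in the results for the secreted ligands was not tested. Of 10 stromal and endothelial markers 4 were tested, CDH5 was called higher and PECAM1 lower, and DCN had no row, with a summed level of 13.3 to 14.4 CPM in siCtrl and 10.3 to 11.6 CPM in siBAP18. Mitochondrial genes took 6.86% to 7.43% of counts in siCtrl and 5.27% to 6.14% in siBAP18, and the part of this difference in the results was not tested.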

How the data were processed

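Poly(A) RNA from 3 siCtrl and 3 siBAP18 A549 cultures was sequenced as paired reads of 150 bases from strand-specific (dUTP) libraries. The authors deposited raw counts for each gene and an RPKM table, in which each count was divided by the listed gene length and the column total. Exon positions lie on GRCh38. Per the labels the processing notes name the builds hg38 and GRCm38, and the aligner, the counting program and the use of strand are not given in the sources used here. Low counts were mostly even: 77.4% of the 48431 values of 1 to 10, against 55.4% of large counts, so that a count may stand for a mate rather than a fragment, and floors cover counting error only.

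The count test was edgeR 4.0.16 in R 4.3.3 (filterByExpr, TMM, quasi-likelihood test, Benjamini-Hochberg adjustment over 20776 genes). Each standard error was taken from the log2 fold and the root of its F statistic. Limma 3.58.1 and DESeq2 1.42.0 served as alternatives, and the steps were tested on simulated data. Residuals of same-numbered libraries correlated at r = 0.072, 0.22 and 0.105 across 14222 genes, which does not settle whether they were paired. The main test did not take the numbers as pairs, and a fit with a replicate block is given below. No library was a copy of another (chi-square over degrees of freedom 3.94 or more).

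The 10 genes and the lists were chosen with earlier results of these data known. Named genes were all 10, fixed regulators and receptors, up to 4 called genes of lowest adjusted p from each list, and the gene nearest in profile to each called member. Promoters and transcripts were read from RefSeq and GENCODE 29 tables with Python 3.11.15. Alternatives were other scalings, tests and filters, limma on log2(RPKM + 1) and log2(RPKM + 0.1), a replicate block, each library left out and no fold threshold. A comparison of the proteins was planned and is not reported here, nor is 1 of the leukocyte markers.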

Additional observations from a re-analysis of the deposited data

How the results depend on the processing

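IL11, CCL2 and CXCL1 passed an adjusted p of 0.05 in the same direction in all 17 alternatives. CXCL3 did not pass with limma on log2(RPKM + 1) without a filter (adjusted p = 0.089), a scale that understates the change of low genes, and CXCL2 did not pass without siBAP18 replicate 2 (adjusted p = 0.056). CXCL5 did not pass in the 3 limma settings (adjusted p = 0.066 to 0.106) or without any 1 of the siCtrl libraries (0.070 to 0.087). LIF did not pass without siCtrl replicate 2 (adjusted p = 0.092) or with limma on log2(RPKM + 0.1) (0.063) or on log2(RPKM + 1) without a filter (0.069). Members lower at an adjusted p alone, 2 as reported, therefore numbered 1 with limma on log2(RPKM + 1), 0 with log2(RPKM + 0.1), 0 with log2(RPKM + 1) without a filter, and 0 to 2 with 1 library left out. Without the fold threshold 5 of the 10 genes were higher and 2 lower.

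All genes called numbered 981 higher and 777 lower. They were 605 higher with at least 10 counts in every library, where fewer genes are tested, 215 higher and 133 lower with limma on log2(RPKM + 1), 471 and 428 with log2(RPKM + 0.1), 211 and 133 with log2(RPKM + 1) without a filter, and 5089 and 5216 without the fold threshold. The lists of other ligands, receptors and regulators, without the cell type markers, held 16 genes called higher and 2 lower, which became 10 and 0 with limma on log2(RPKM + 1), 10 and 0 without its filter, and 30 and 14 without the fold threshold. The replicate block gave 968 higher and 773 lower and changed no call of the 10 genes, and same-numbered libraries were not all correlated above 0.1. The cause of these moves was otherwise not tested. Depth limits CCL20 and IL6, at no more than 8 counts in any library.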

Other observations

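Among secreted ligands outside the 10 genes, several passed an adjusted p of 0.05 without reaching the fold threshold, and they are named here after their values were seen. CSF1, the growth factor of macrophages, rose by 0.52 on the log2 scale (standard error 0.076), and CLCF1, a gp130 cytokine, rose by 0.37 (standard error 0.087). IL33, an alarmin of the IL-1 family, fell by 0.94 (standard error 0.270), IL18 of the same family by 0.35 (standard error 0.072), and the lymphoid growth factor IL7 by 0.33 (standard error 0.129). LTA, the soluble partner of LTB, did not pass the filter and had 2, 6 and 0 counts in siCtrl and 22, 30 and 8 in siBAP18, without overlap.

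In the lists of regulators, the membrane proteases ADAM10 and ADAM17, which shed cytokines and their receptors, fell by 0.82 (standard error 0.070) and 0.54 (standard error 0.075) on the log2 scale. CASP4, an inflammatory caspase, rose by 0.60 (standard error 0.077). ARID5A, which stabilizes IL6 mRNA, rose by 0.80 (standard error 0.176), and TIA1, which binds AU-rich mRNAs, fell by 0.68 (standard error 0.079). These genes were also named after their values were seen.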
